A study of Mus musculus with 30 samples.

Results

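The 37 genes described here encode subunits of the respiratory chain and of ATP synthase that are carried on nuclear chromosomes. They were picked by symbol from 36528 gene identifiers in the count tables, and all 37 were found; the rule uses no measured value, but the list was drawn up with earlier results of these data known. They comprise 10 genes of the matrix arm of complex I, 8 of its membrane arm, Ndufa4, 4 of complex II, 5 of complex III, 5 of complex IV and 4 of complex V.

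RNA was sequenced from sorted mouse brain cells in 30 libraries, 5 in each of 6 groups, from mice 11.5 months old. PS2APP mice carry human presenilin-2 and amyloid precursor protein transgenes and are an amyloid model; the comparison animals are non-transgenic (non-Tg). Sorting used NeuN for neurons, Gfap for astrocytes and CD11b for myeloid cells, which the labels also call microglia, so that each population has a non-Tg and a PS2APP group. The promoters that drive the transgenes, and which libraries share an animal, were not stated in the labels. The p-values therefore measure the spread between libraries, part of which may be technical.

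Oxidative phosphorylation transfers electrons from NADH (complex I) and succinate (complex II) through complexes III and IV to oxygen, and complex V uses the resulting proton gradient to make ATP. Most subunits are nuclear-encoded and imported, while a small core set is encoded by mitochondrial DNA. In brain, neurons are known for a high demand on this pathway, astrocytes for a larger glycolytic share, and microglia for shifting between both modes on activation.

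Promoter sequence was read for the members from the RefSeq table of build GRCm38.p6, in which 27 of the 37 genes had a window of 300 bases, 250 before and 50 after the annotated start (28 windows in all). The windows of 3 genes are shown. They were chosen after the motif search, as members that held the ETS motif and whose RNA differed between populations below: Ndufs8 and Sdhb were higher in myeloid libraries, and Ndufs3 was higher in neuron libraries. Each is printed 5′ to 3′ on the gene's strand to base 30 after the start, and capitals mark matches to the searched motifs in either orientation.
Ndufs8 promoter (chr19:3912745-3913024, minus strand): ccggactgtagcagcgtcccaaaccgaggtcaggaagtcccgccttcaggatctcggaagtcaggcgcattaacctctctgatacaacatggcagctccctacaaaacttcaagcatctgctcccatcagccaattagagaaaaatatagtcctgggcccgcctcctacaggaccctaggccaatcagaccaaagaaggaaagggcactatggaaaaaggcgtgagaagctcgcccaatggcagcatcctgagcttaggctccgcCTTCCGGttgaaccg
Sdhb promoter (chr4:140961021-140961300, plus strand): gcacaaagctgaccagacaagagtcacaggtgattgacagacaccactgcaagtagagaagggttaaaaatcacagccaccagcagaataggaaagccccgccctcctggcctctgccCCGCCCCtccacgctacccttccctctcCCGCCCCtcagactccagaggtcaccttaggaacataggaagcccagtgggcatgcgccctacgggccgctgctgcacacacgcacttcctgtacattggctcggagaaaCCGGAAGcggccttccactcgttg
Ndufs3 promoter (chr2:90904692-90904971, minus strand): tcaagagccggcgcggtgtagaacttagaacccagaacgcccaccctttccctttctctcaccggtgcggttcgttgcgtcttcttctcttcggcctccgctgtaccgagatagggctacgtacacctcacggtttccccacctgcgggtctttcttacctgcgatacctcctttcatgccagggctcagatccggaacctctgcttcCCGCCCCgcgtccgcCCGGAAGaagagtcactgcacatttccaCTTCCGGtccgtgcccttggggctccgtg
The ETS motif CCGGAAG, by which these windows were chosen, starts 16 bases into the Ndufs8 transcript, at base 7 of the Sdhb transcript, and at positions -27 and 2 of Ndufs3. The Sp1 motif GGGGCGG lay at -132 and -104 in Sdhb and at -42 in Ndufs3. Among member windows, 14.29% held the ETS motif against 8.86% of 32851 windows of all genes, and Sdhd was the other member with it. The YY1 motif AAGATGGCG was in 10.71% of member windows (Ndufa9, Ndufs4 and Ndufs7) against 1.4% of all, and the NRF1 motif GCGCATGCG in 7.14% (Ndufa8 and Uqcrc1) against 1.75%. The Sp1 motif was in 21.43% against 23.18%, and the ERR motif CAAGGTCA in 3.57% (Sdhd) against 1.56%. Other members that differed between populations, such as Ndufb5, Cox7a2, Cox5a and Ndufv2, had no match to any of the motifs in their windows. These matches describe letters only.

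Libraries held 2015535 to 6749681 counts. The sort genes matched the labels: Rbfox3, the NeuN gene, averaged 116 and 167 CPM (counts scaled to library size) in the non-Tg and PS2APP neuron groups and 7.21 to 20.4 elsewhere, Gfap 731 and 1274 in astrocytes and 3.43 to 116 elsewhere, and Itgam, the CD11b gene, 1537 and 1099 in myeloid cells and 5.76 to 13.3 elsewhere. Neuron libraries came from cells spun at 2600 rcf, with a typical RNA yield of 200 to 300 ng, against 6600 rcf for the others, with 10 to 20 ng from myeloid cells and 2 to 5 ng from astrocytes. Population and handling cannot be told apart. On the first principal component of their own populations, PS2APP neuron 5, PS2APP astrocyte 3 and PS2APP myeloid 4 lay farthest from the centre. Some library must be farthest in each population, and how far these lay from the others was not assessed. The 11 neuron markers summed to 340 to 578 CPM in non-Tg astrocyte libraries and 569 to 1562 in PS2APP ones, and to 271 to 496 against 462 to 621 in the myeloid ones. The 8 oligodendrocyte markers summed to 798 to 1232 against 1003 to 2093 in astrocyte libraries, and to 716 to 1105 against 1163 to 1794 in myeloid libraries. In bulk libraries such as these, fewer cells of a type and less RNA per cell cannot be told apart.

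Members were low to moderate in these libraries, and their replicate spread was well above counting error. The median coefficient of variation of the members was 21% in non-Tg neurons, 27.1% in PS2APP neurons, 33.9% and 42.6% in the astrocyte groups and 38.1% and 51.9% in the myeloid groups, while counting alone would give medians of 12.1% to 18.8%. Between 5 and 15 members had a library with fewer than 10 counts, depending on the group. A typical member is a short gene model, shorter than 91.6% to 92.8% of the genes tested. Of the 37 members, 13 overlap another annotated gene, 7 of them a protein-coding one, and the sources do not state whether the counting used strand.

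By mean CPM, most members were highest in myeloid libraries. Myeloid cells were the highest of the 3 populations for 26 of 37 members in non-Tg mice and for 27 in PS2APP mice, 23 of them the same, and neurons for 6 in each genotype. This ranking ignores the size of the gap, and the share of all genes highest in myeloid cells was not counted. Summed over all members, non-Tg libraries held 532 ± 39.5 CPM in neurons, 527 ± 39.3 in astrocytes and 765 ± 81.3 in myeloid cells (mean ± SD, n = 5 each). The sum of the 5 complex IV genes was led by Cox4i1, which made up 64.4 of the 97.4 CPM in non-Tg myeloid cells. Non-Tg neuron libraries held 22.7 to 37.3 CPM, astrocyte libraries 24.7 to 37.9 and myeloid libraries 59.6 to 124, with no overlap between myeloid and the others. Without Cox4i1 the 4 other genes summed to 12.9 to 19.7, 10.47 to 20.7 and 17.7 to 41.7 CPM, which overlapped. Their means were 15.9, 15.5 and 33.0 CPM. In PS2APP mice the complex IV sums were 16.2 to 27.8, 24.6 to 57.0 and 88.3 to 166 CPM, and 7.57 to 16.4, 13.8 to 22.5 and 23.1 to 47.7 without Cox4i1. Complex II sums overlapped among the 3 non-Tg populations, at 53.8 to 85.1, 70.9 to 123 and 59.9 to 120 CPM.

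**Figure D1:**
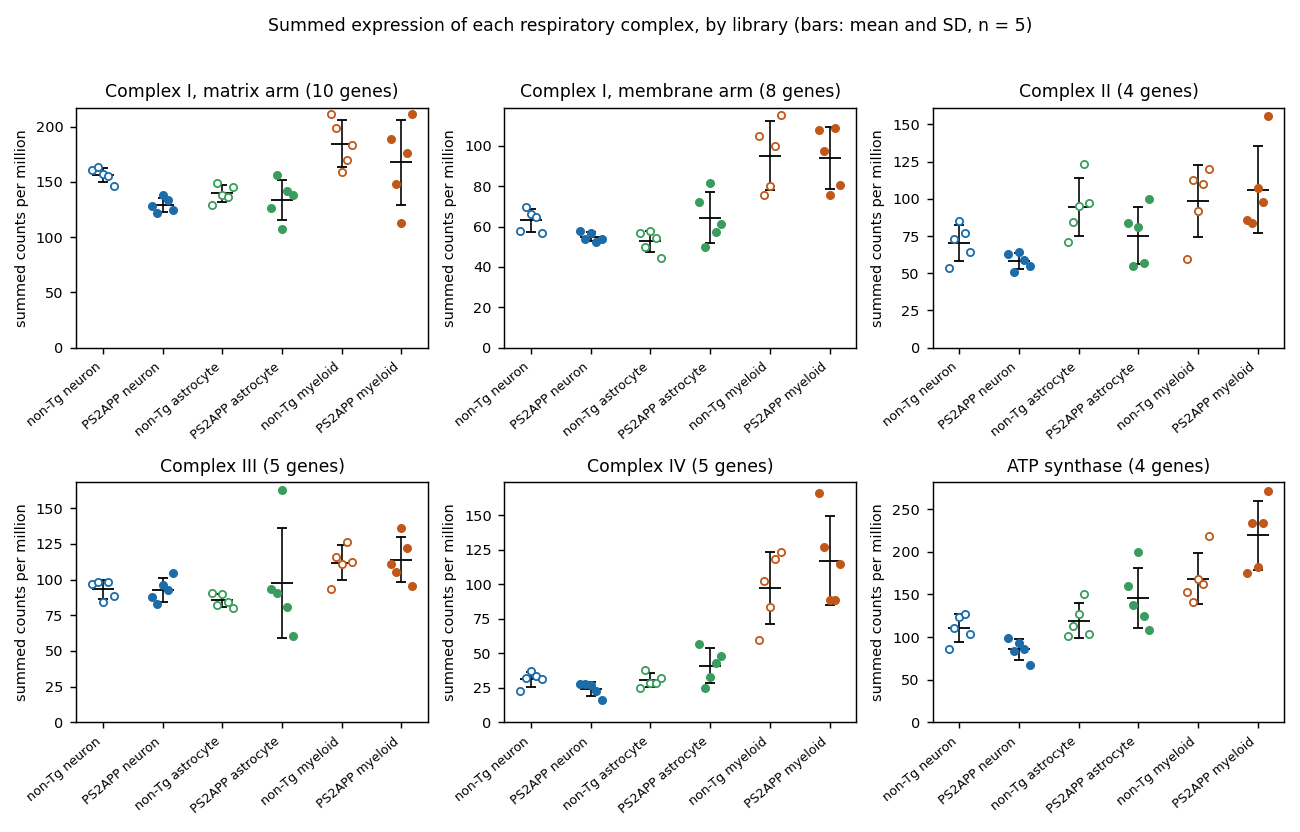
Summed CPM of the members of each respiratory complex (y axis, one point per library, open for non-Tg and filled for PS2APP; bars are the group mean and SD, n = 5) in the 6 groups. The complex IV sums of all myeloid libraries, 59.6 to 166 CPM, lie above every neuron and astrocyte library, whose highest value is 57.0. Without Cox4i1 (not drawn) the non-Tg ranges overlap, with a lowest myeloid sum of 17.7 and a highest astrocyte sum of 20.7. The non-Tg means without it were 15.9 in neurons, 15.5 in astrocytes and 33.0 in myeloid cells.

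The populations were compared in non-Tg mice in an edgeR quasi-likelihood fit of all 30 libraries, with Benjamini-Hochberg adjustment over 18101 genes and a threshold of 0.05 on the adjusted p. Of the 37 members, 35 passed the filter on low counts; Ndufb3 and Atp5g1 did not. Against myeloid cells, 2 members were higher in neurons and 13 lower, where 67.9% of all genes differed (33.7% higher, 34.1% lower), and the members' median log2 difference was -0.50 against -0.03 for all genes. Against myeloid cells, 0 members were higher in astrocytes and 14 lower, where 57.4% of all genes differed (30.7% higher, 26.8% lower), with a median of -0.62 against 0.11. Between neurons and astrocytes, 3 members were higher in neurons and 1 lower, where 51.7% of all genes differed (24.8% higher, 26.9% lower), and the median was 0.03. Counted over both directions, the share of members called was thus 42.9%, 40% and 11.4%, in each case below the share of all genes. Against myeloid cells the calls were mostly in 1 direction. Lower were 13 of 35 members for neurons and 14 of 35 for astrocytes, beside 34.1% and 26.8% of all genes. Higher were 2 of 35 and 0 of 35, beside 33.7% and 30.7%. At a 2-fold threshold (glmTreat) 4, 4 and 0 members passed, against 46.6%, 34.7% and 30% of all genes. With DESeq2's size factors, which move the median of all genes from -0.03 to 0.20 and from 0.11 to 0.28 in the myeloid comparisons, the counts became 3 higher and 8 lower for neurons, and 0 higher and 11 lower for astrocytes.

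**Figure D2:**
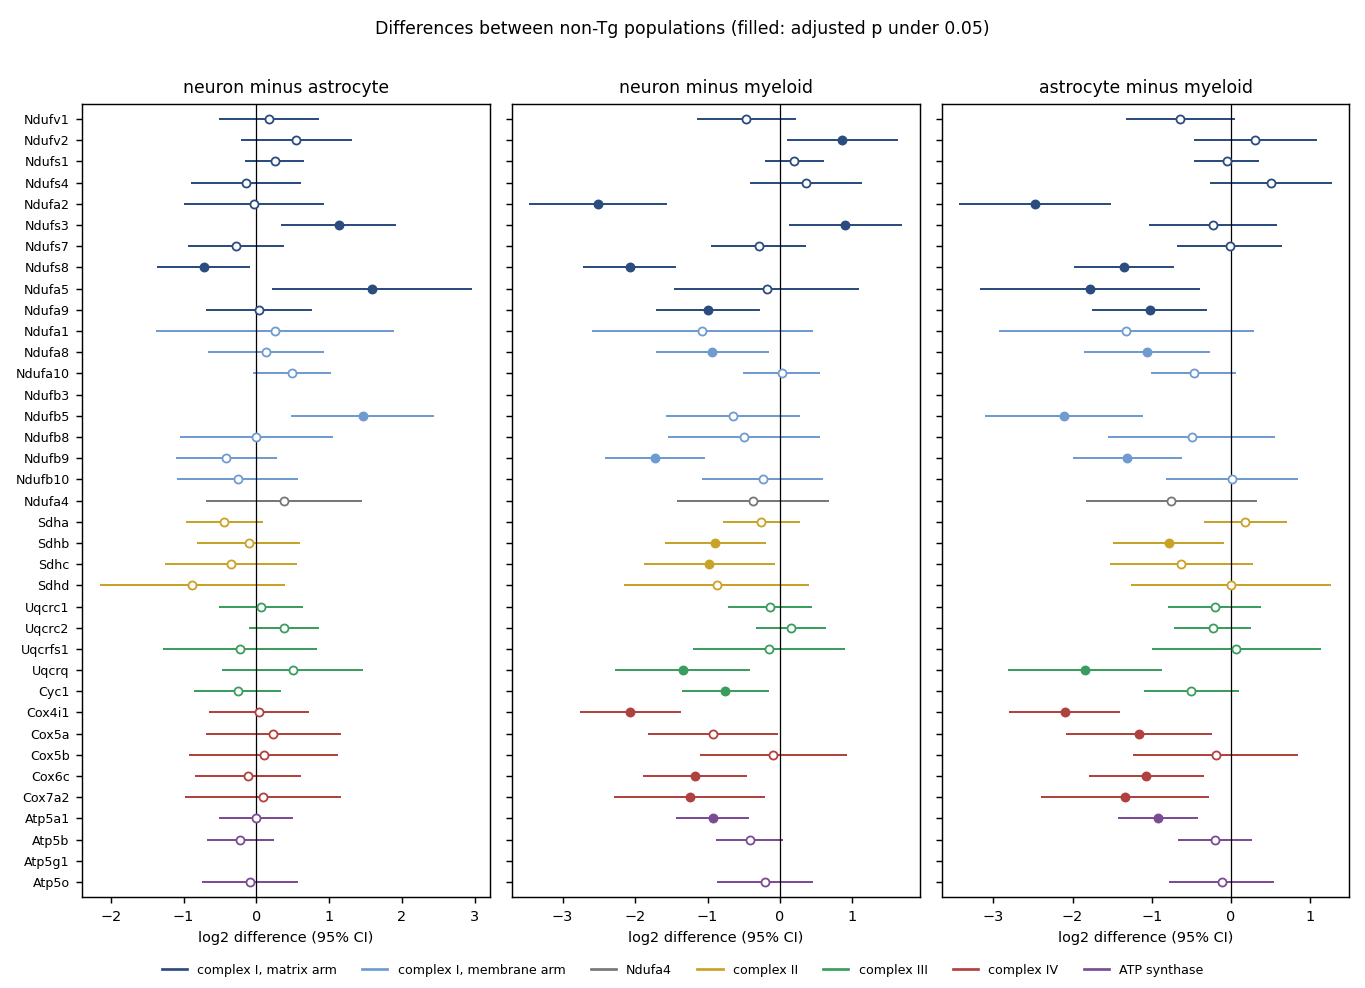
Log2 differences between populations in non-Tg libraries for each tested member (x axis; lines are 95% confidence intervals), coloured by complex; filled points passed an adjusted p of 0.05. Most filled points of the myeloid comparisons lie left of 0, 13 of 15 for neurons and all 14 for astrocytes.

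The same contrasts among the PS2APP libraries, which share no library with the non-Tg ones, gave 1 member higher and 21 lower in neurons than in myeloid cells (65.5% of all genes differed, 34.7% higher and 30.8% lower), 1 higher and 14 lower in astrocytes than in myeloid cells (53.3%, with 29.5% higher and 23.8% lower), and 1 higher and 5 lower in neurons than in astrocytes (50.4%, with 24.9% higher and 25.5% lower). Below myeloid cells, 11 members were called for neurons in both genotypes and 10 for astrocytes. Myeloid levels above both other populations were called for 11 members in non-Tg mice and 12 in PS2APP mice. The share of all genes that met either of these combined rules was not counted. These counts therefore do not set the members apart from other genes. The 8 in both were Ndufa2, Ndufs8, Ndufb9, Sdhb, Uqcrq, Cox4i1, Cox7a2 and Atp5a1; with DESeq2's size factors Sdhb and Cox7a2 dropped out, which left 6. Without the 3 libraries farthest on the first principal component, an alternative chosen after seeing the data, the 8 in both held Ndufa9 in place of Sdhb.

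In the matrix arm of complex I, which takes up NADH and passes electrons along flavin and iron-sulfur centres, Ndufa2 and Ndufs8 had the widest gap between neurons and myeloid cells. Ndufa2 (Entrez 17991, chr18:36742332-36744587), an accessory subunit, read 2.62, 4.27, 3.38, 4.82 and 3.25 CPM in non-Tg neuron libraries 1 to 5, 4.42, 3.19, 1.83, 3.74 and 5.55 in astrocyte libraries and 24.9, 18.6, 13.9, 26.1 and 21.8 in myeloid libraries. Every myeloid library was above every other library; the neuron difference from myeloid cells was -2.51 on the log2 scale (SE 0.46, edgeR adjusted p = 1.11e-05) and the astrocyte difference -2.47 (SE 0.47, edgeR adjusted p = 2.37e-05). Its span shares 69 bases with Tmco6. In PS2APP mice the myeloid libraries of Ndufa2 read 33.4, 22.1, 9.01, 39.99 and 25.5 CPM, and one astrocyte library, at 9.27, exceeded the lowest of them.

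Ndufs8 (Entrez 225887, chr19:3908863-3912774), an iron-sulfur subunit whose promoter is shown above, read 4.47, 5.62, 5.25, 6.02 and 6.10 CPM in non-Tg neurons, 4.62, 10.2, 9.14, 12.6 and 8.93 in astrocytes and 29.0, 34.6, 16.5, 15.4 and 20.7 in myeloid cells. Myeloid libraries lay apart from both others, and astrocyte library 1 fell within the neuron range. The log2 difference was -2.08 (SE 0.31, edgeR adjusted p = 3.89e-07) for neurons and -1.35 (SE 0.31, edgeR adjusted p = 0.000278) for astrocytes, each from myeloid cells. Ndufs8 was also the member lower in neurons than in astrocytes (-0.73, SE 0.31, edgeR adjusted p = 0.049), and this call held in 6 of 30 fits that left out 1 library; in PS2APP mice it was -0.80 (edgeR adjusted p = 0.0368).

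Ndufs3 and Ndufv2 went the other way. Ndufs3 (Entrez 68349, chr2:90894627-90904721), a core subunit next to the iron-sulfur chain, read 7.55, 9.11, 7.13, 5.72 and 6.78 CPM in non-Tg neurons, 3.22, 4.19, 2.44, 1.64 and 5.07 in astrocytes and 4.88, 3.57, 3.18, 3.81 and 3.92 in myeloid cells, so that each neuron library was above each library of the other populations. It was 1.13 higher on the log2 scale in neurons than in astrocytes (SE 0.38, edgeR adjusted p = 0.0127), and 1.40 higher in PS2APP mice (SE 0.41, edgeR adjusted p = 0.00397). Its difference from myeloid cells was 0.90 in non-Tg mice (SE 0.38, edgeR adjusted p = 0.0346) and 0.08 in PS2APP mice, where myeloid libraries reached 11.9 CPM. Ndufv2, the 2Fe-2S flavoprotein subunit (chr17:66078795-66101559), was 0.86 higher in non-Tg neurons than in myeloid cells (SE 0.37, edgeR adjusted p = 0.0394). In PS2APP mice this Ndufv2 difference was 0.57 and did not pass (edgeR adjusted p = 0.201). Nor did its non-Tg difference from astrocytes, 0.55 (edgeR adjusted p = 0.217).

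Ndufa5, an accessory subunit with few counts, read 4.47, 3.71, 4.88, 4.52 and 4.47 CPM in non-Tg neurons, 0, 0.998, 0, 3.44 and 2.41 in astrocytes and 8.99, 3.39, 2.61, 3.81 and 6.31 in myeloid cells. Neuron libraries were all above astrocyte libraries, and the difference of 1.60 (SE 0.67, edgeR adjusted p = 0.0448) held in 20 of 30 fits without 1 library. In PS2APP mice the Ndufa5 difference was -0.34 and did not pass (edgeR adjusted p = 0.7).

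**Figure D3:**
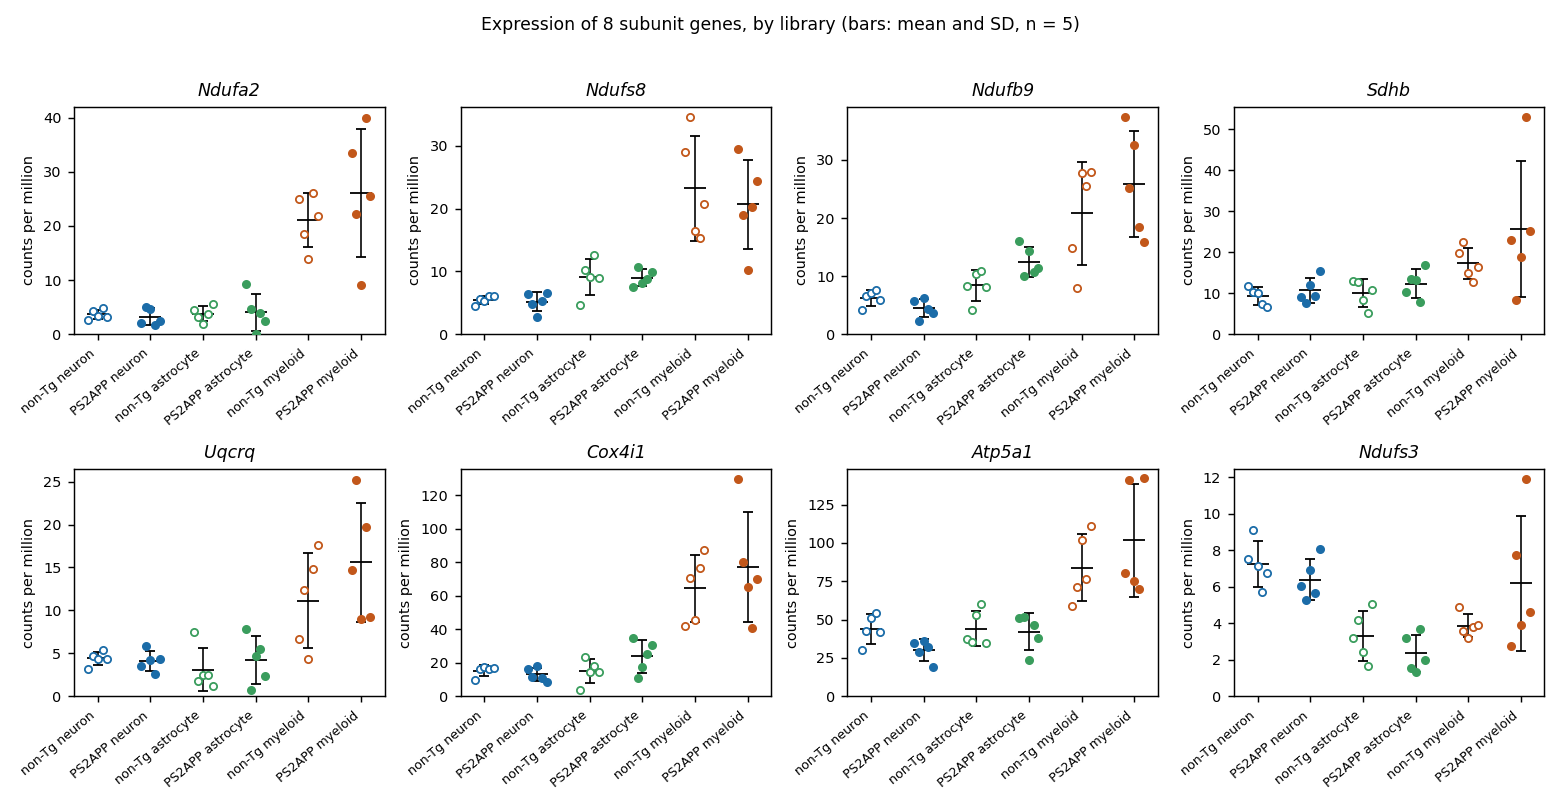
CPM (y axis) of 8 members in each library of the 6 groups; points are libraries (open for non-Tg, filled for PS2APP) and bars are the group mean and SD, n = 5. Ndufa2, Ndufs8, Ndufb9, Sdhb, Uqcrq, Cox4i1 and Atp5a1 are highest in myeloid libraries, and Ndufs3 in non-Tg neuron libraries.

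In the membrane arm, which pumps protons, Ndufb9 and Ndufb5 are accessory subunits. Ndufb9 (chr15:58933801-58939516) read 4.16, 6.64, 7.13, 7.68 and 5.83 CPM in non-Tg neurons, 8.24, 4.19, 10.4, 10.9 and 8.21 in astrocytes and 14.9, 8.04, 27.8, 25.4 and 27.9 in myeloid cells, where only library 2 overlapped the other populations. Its log2 difference from myeloid cells was -1.72 for neurons (SE 0.33, edgeR adjusted p = 2.69e-05) and -1.31 for astrocytes (SE 0.33, edgeR adjusted p = 0.00102). Ndufb5 (chr3:32737057-32751559) was instead low in astrocytes: non-Tg neurons read 8.94, 11.5, 13.7, 12.8 and 10.3 CPM, astrocytes 2.21, 1.20, 8.84, 5.23 and 3.62, and myeloid cells 17.99, 13.7, 11.3, 12.5 and 34.4. The neuron minus astrocyte difference of Ndufb5 was 1.46 (SE 0.48, edgeR adjusted p = 0.0103) in non-Tg mice and -0.04 in PS2APP mice, and astrocytes were -2.11 from myeloid cells (SE 0.49, edgeR adjusted p = 0.000323).

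In complexes II and III, which feed and pass on ubiquinol electrons, 1 gene each stood above both other populations in both genotypes. Sdhb, the iron-sulfur subunit of succinate dehydrogenase (Entrez 67680, chr4:140961271-140979198), read 11.9, 10.3, 10.1, 7.37 and 6.64 CPM in non-Tg neurons, 13.1, 12.8, 8.23, 5.08 and 10.9 in astrocytes and 19.8, 22.5, 15.1, 12.6 and 16.3 in myeloid cells. Myeloid library 4 overlapped the astrocyte libraries, and the differences were -0.90 for neurons (SE 0.34, edgeR adjusted p = 0.0186) and -0.79 for astrocytes (SE 0.34, edgeR adjusted p = 0.0459); the astrocyte call held in 10 of 30 fits without 1 library. Uqcrq, a small subunit of the cytochrome bc1 complex (chr11:53427922-53430831), read 3.24, 4.72, 4.31, 5.42 and 4.34 CPM in non-Tg neurons, 7.44, 1.80, 2.44, 2.54 and 1.21 in astrocytes and 6.68, 12.3, 4.34, 14.8 and 17.6 in myeloid cells. The Uqcrq groups overlapped at their edges, and the differences from myeloid cells were -1.34 for neurons (SE 0.45, edgeR adjusted p = 0.00901) and -1.84 for astrocytes (SE 0.47, edgeR adjusted p = 0.00104). Uqcrq shares 58 bases with Gdf9.

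Complex IV, cytochrome c oxidase, contributed 3 of the 13 members lower in neurons and 4 of the 14 lower in astrocytes than in myeloid cells. Cox4i1 (Entrez 12857, chr8:120668225-120674209), its regulatory subunit 4, read 9.71, 16.1, 17.6, 16.6 and 17.1 CPM in non-Tg neurons, 4.02, 23.5, 14.3, 18.2 and 14.7 in astrocytes and 41.9, 70.7, 45.5, 76.6 and 87.3 in myeloid cells. No myeloid library overlapped the others, and the log2 differences were -2.06 for neurons (SE 0.34, edgeR adjusted p = 1.54e-06) and -2.10 for astrocytes (SE 0.34, edgeR adjusted p = 1.86e-06). In PS2APP mice Cox4i1 read 8.58 to 18.3 CPM in neurons, 10.8 to 34.6 in astrocytes and 40.6 to 129 in myeloid cells, again without overlap. Cox7a2 spread more: non-Tg myeloid libraries read 2.06, 20.9, 3.76, 15.7 and 4.13 CPM, 3 of them within the range of the other populations, and its differences were -1.24 (SE 0.51, edgeR adjusted p = 0.0296) and -1.34 (SE 0.52, edgeR adjusted p = 0.0265). Its span shares 2482 bases with Tmem30a.

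In complex V, Atp5a1, the alpha subunit of the catalytic head (Entrez 11946, chr18:77773768-77782869), read 29.9, 42.6, 51.0, 54.5 and 41.7 CPM in non-Tg neurons, 37.4, 35.7, 53.0, 60.0 and 35.0 in astrocytes and 58.8, 71.2, 102, 76.3 and 111 in myeloid cells. Only the lowest myeloid library fell within the astrocyte range, and the differences were -0.93 for neurons (SE 0.24, edgeR adjusted p = 0.00108) and -0.92 for astrocytes (SE 0.25, edgeR adjusted p = 0.00162). Atp5b, the beta subunit that pairs with it in the head, differed by -0.42 and -0.20 and did not pass (edgeR adjusted p = 0.0959 and 0.462).

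Of the other members below myeloid cells, Cox6c, a small subunit of complex IV, was at -1.18 in neurons and -1.07 in astrocytes (edgeR adjusted p = 0.00321 and 0.00935). Ndufa9 was at -0.99 and -1.02 (0.0119 and 0.0126) and Ndufa8 at -0.93 and -1.06 (0.0292 and 0.018), both accessory subunits of complex I. Cyc1, the cytochrome c1 gene, passed for neurons (-0.75, edgeR adjusted p = 0.0203), as did Sdhc (-0.97, edgeR adjusted p = 0.0484, held in 6 of 30 fits without 1 library). Cox5a and Ndufa5 passed for astrocytes (-1.16 and -1.78, edgeR adjusted p = 0.0263 and 0.024). In PS2APP mice Cox6c, Ndufa9 and Cyc1 passed for neurons again (-1.77, -1.17 and -0.80, edgeR adjusted p = 7.47e-05, 0.00436 and 0.017). Sdhc and Ndufa8 did not (-0.98 and -0.004, edgeR adjusted p = 0.0565 and 0.994). For astrocytes, Cox5a was called in PS2APP mice as well, and Cox6c, Ndufa9, Ndufa8 and Ndufa5 were not.

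The PS2APP effect was tested within each population with edgeR's quasi-likelihood test, as log2 PS2APP over non-Tg. No member passed an adjusted p of 0.05 in any population, among 35 tested in neurons and 33 each in astrocytes and myeloid cells; 0.00623%, 0.185% and 3.36% of all genes did. At an unadjusted p under 0.05 there were 11, 2 and 3 members, where 22.9%, 17.2% and 19.3% of all genes were. DESeq2's Wald test called 1 member in neurons, 0 in astrocytes and 1 in myeloid cells, among 153, 327 and 899 genes called in all. In neurons 30 of 35 members had values below 0, with a median of -0.30 against -0.02 for all genes and -0.11 for the tenth of genes with the shortest models. In astrocytes 18 of 33 were above 0 (median 0.08) and in myeloid cells 21 of 33 (median 0.26). The list as a whole was not tested. Leaving out 1 library moved the astrocyte median between 0.024 (without PS2APP astrocyte 1) and 0.175 (without PS2APP astrocyte 5), with 0.050 without non-Tg astrocyte 3, and the myeloid median between 0.116 (without non-Tg myeloid 2) and 0.381 (without PS2APP myeloid 3), with 0.171 without PS2APP myeloid 5. Without the library farthest on the first principal component in each population, 0 members passed and the medians were -0.25, 0.07 and 0.19. Ndufv2 was then at -0.54 in neurons, Atp5b at 0.30 in astrocytes and 0.39 in myeloid cells, and Ndufs1 at -0.70 in myeloid cells.

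**Figure D4:**
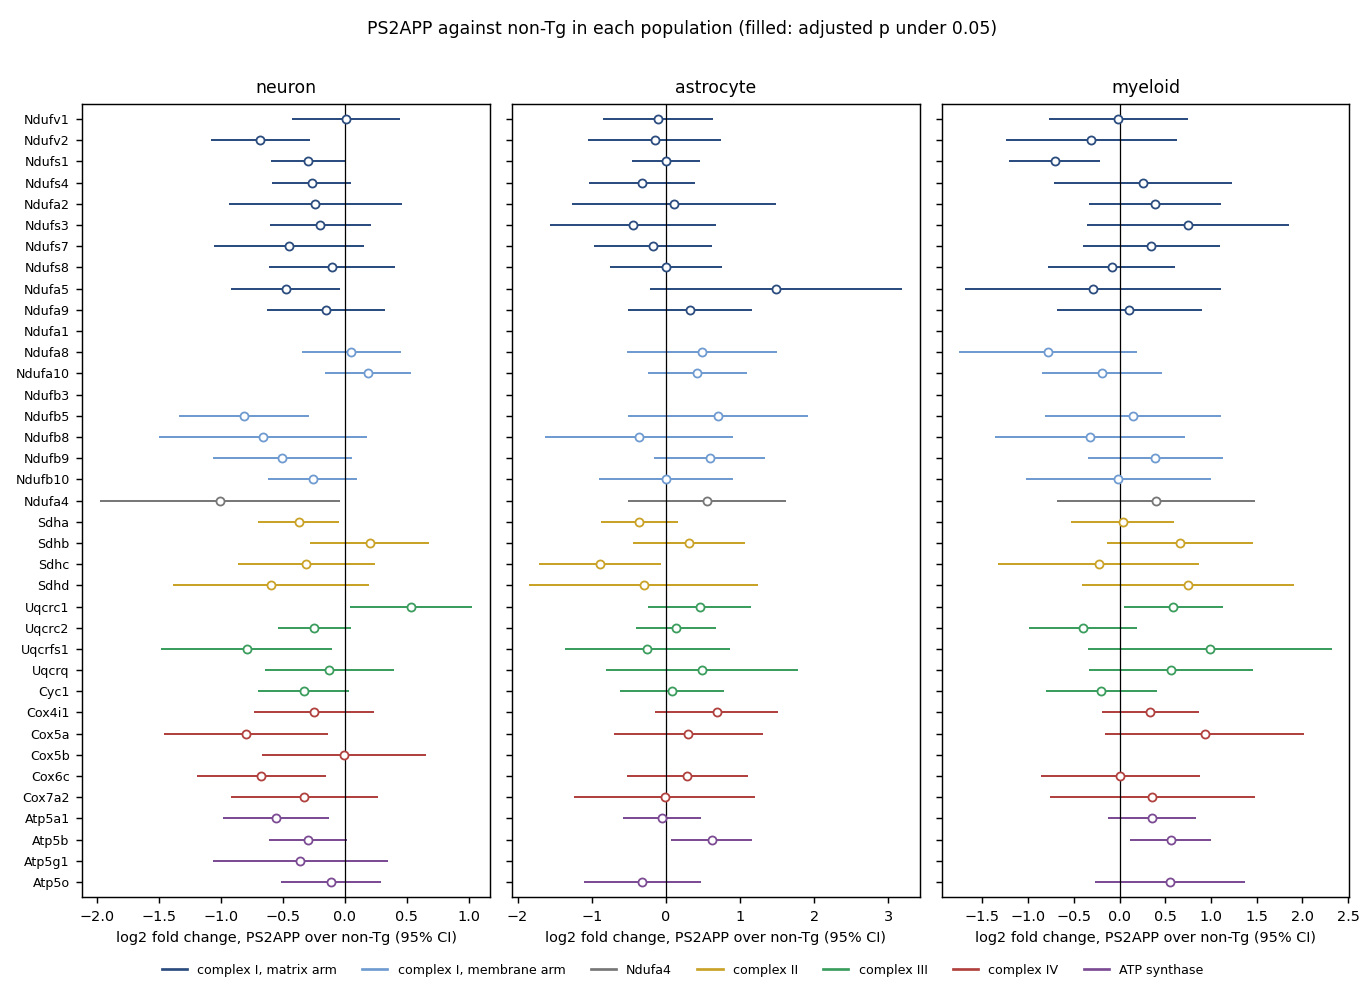
Log2 PS2APP over non-Tg of each tested member (x axis; lines are 95% confidence intervals) in neuron, astrocyte and myeloid libraries, coloured by complex. No point passed an adjusted p of 0.05; in neurons 30 of 35 points lie below 0, with a median of -0.30.

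In neurons the complex I matrix arm genes summed to 176 to 196 CPM in non-Tg libraries (mean 188 ± 7.28 SD, n = 5) and 147 to 162 in PS2APP libraries (154 ± 6.51), with no overlap. Without Ndufs1, the most abundant of them, the sums were 108 to 134 and 91.8 to 101.3. These sums still held Ndufv2, whose own groups did not overlap (below). They therefore do not show a shift across the arm's other genes. On the scale of all libraries, neuron sums of the membrane arm (56.9 to 69.8 against 52.6 to 57.7 CPM) and of complexes II to V overlapped between genotypes. The sum of all members, which includes the matrix arm, did not overlap, at 480 to 565 against 421 to 478 CPM. No sum was tested. Ndufv2 was the single tested member whose neuron groups did not overlap, as 3.13% of all tested genes did. It read 26.0, 24.3, 28.6, 24.1 and 22.8 CPM in non-Tg and 17.6, 20.0, 17.1, 14.4 and 9.37 in PS2APP libraries, lowest in library 5, the farthest on the first principal component. Its difference was -0.68 (SE 0.18, edgeR adjusted p = 0.186). DESeq2 gave -0.67 with an adjusted p of 0.0379, where edgeR alternatives that kept all libraries gave 0.058 to 0.617. Ndufb5, in the membrane arm, read 10.7, 13.8, 16.5, 15.4 and 12.4 against 11.3, 8.95, 8.55, 6.54 and 3.99 CPM, overlapping through the first library of each group (-0.81, SE 0.24, edgeR adjusted p = 0.186). Ndufa4, now assigned to complex IV although first described with complex I, had the lowest value of the members at -1.01 (SE 0.45, edgeR adjusted p = 0.209).

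Complex II values in neurons ran from -0.60 for Sdhd, a membrane anchor, to 0.20 for Sdhb. In complex III, Uqcrc1, a core subunit, had the highest value of the members: it read 33.9, 32.1, 19.8, 28.5 and 31.1 CPM in non-Tg and 29.1, 29.9, 50.3, 36.6 and 65.0 in PS2APP libraries (0.53, SE 0.23, edgeR adjusted p = 0.199). Without PS2APP neuron 5, its highest library, Uqcrc1 was at 0.33 and Sdhb at 0.042. The Rieske protein gene Uqcrfs1 was at -0.79 (edgeR adjusted p = 0.192). Cox5a, a core-binding subunit of complex IV, read 4.05, 3.78, 5.41, 4.36 and 5.22 against 2.81, 4.71, 1.52, 2.78 and 1.40 CPM (-0.80, SE 0.30, edgeR adjusted p = 0.189), and Cox6c was at -0.67 (edgeR adjusted p = 0.186). Atp5a1 read 35.7, 51.2, 61.3, 65.7 and 50.2 against 42.0, 34.6, 42.6, 38.0 and 22.3 CPM (-0.56, SE 0.20, edgeR adjusted p = 0.186), overlapping at 1 non-Tg library.

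In astrocytes the members scattered around 0, from -0.89 to 1.48. Sdhc, a membrane anchor of complex II (chr1:171129157-171150640), was the tested member without overlap, as were 2.99% of all tested genes: it read 9.56, 6.88, 6.41, 13.3 and 7.54 CPM in non-Tg and 5.63, 4.68, 4.25, 6.07 and 2.76 in PS2APP libraries (-0.89, SE 0.39, edgeR adjusted p = 0.251). Atp5b read 36.5, 55.0, 54.8, 70.2 and 51.5 against 82.3, 68.5, 147, 59.8 and 54.1 CPM (0.62, SE 0.25, edgeR adjusted p = 0.230); the highest value is from PS2APP astrocyte 3, the library with the highest neuron marker sum. Without PS2APP astrocyte 3, Atp5b was at 0.30, and with the summed markers of the other populations as a covariate it was at -0.21. These marker sums were themselves higher in PS2APP astrocytes, so marker content and genotype cannot be told apart. The cause was not tested. Ndufa5, a small matrix arm subunit, had the highest value, 1.48 (SE 0.81, edgeR adjusted p = 0.351), on 0, 0.860, 0, 2.99 and 2.10 against 2.19, 5.68, 6.38, 2.68 and 0.689 CPM.

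In myeloid cells all 3 tested members of complex V and all 4 of complex IV had values above 0, while 7 of complex I were above and 9 below. Cox6c, at 0.01, was below 0 with no filter (-0.047), the length offset (-0.0088), the marker covariate (-0.670) and the joint fit (-0.070), and Atp5a1 was below 0 with the covariate (-0.084). Ndufs1 (Entrez 227197, chr1:63143592-63176822), the largest iron-sulfur subunit of complex I, read 38.0, 59.6, 42.6, 38.3 and 56.8 CPM in non-Tg and 26.2, 21.7, 33.1, 28.0 and 34.5 in PS2APP libraries, without overlap, as 4.80% of all tested genes did. Its difference was -0.71 (SE 0.24, edgeR adjusted p = 0.0936), which passed in the joint fit of all libraries (-0.79, edgeR adjusted p = 0.0235) and by DESeq2 (-0.69, adjusted p = 0.043); the other edgeR alternatives that kept all libraries gave 0.0815 to 0.16. Its span shares 14704 bases with Ino80dos, a long noncoding gene. Atp5b read 71.7, 55.2, 54.3, 69.6 and 84.1 against 80.2, 66.6, 92.0, 146 and 110 CPM (0.56, SE 0.21, edgeR adjusted p = 0.135), and Uqcrc1 24.9, 20.5, 30.9, 24.3 and 26.0 against 36.3, 24.8, 45.2, 52.8 and 31.5 CPM (0.59, SE 0.26, edgeR adjusted p = 0.208). Myeloid library 4, the farthest on the first principal component, was the highest PS2APP library for both genes. Ndufa1, a membrane arm subunit that fell under the count filter here, read 0 to 2.988 CPM in non-Tg and 2.999 to 17.2 in PS2APP libraries on 0 to 27 counts. With the other populations' markers as a covariate the myeloid median of members went from 0.26 to 0.06.

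The PS2APP effect was then compared between populations by interaction contrasts in the joint edgeR fit. No member passed, where 0.0331%, 0.105% and 0.757% of all genes did for neuron minus astrocyte, neuron minus myeloid and astrocyte minus myeloid. An unadjusted p under 0.05 was found for 4, 5 and 2 of 35 members, where 4.97%, 9.65% and 13% of all genes had one. The lowest adjusted p in each belonged to Atp5b (-0.88, SE 0.32, edgeR adjusted p = 0.805), Cox5a (-1.61, SE 0.63, edgeR adjusted p = 0.387) and Ndufs1 (0.77, SE 0.28, edgeR adjusted p = 0.2). These 3 contrasts share libraries, and a difference in effect was not detectable for any member at this depth and spread.

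Levels of different genes were compared on the deposited RPKM scale, which divides by gene length. Atp5b was the highest member in the neuron and astrocyte groups, at 9.24 ± 1.47 RPKM in non-Tg (mean ± SD, n = 5) and 7.53 in PS2APP neurons and at 10.2 and 15.5 in astrocytes, and Cox4i1 in both myeloid groups, at 23.5 and 30.6. Subunits of 1 complex differed widely: in non-Tg myeloid cells Cox5b, also of complex IV, was at 0.86 RPKM. Atp5g1, a copy of the c-ring gene of complex V, was at 0.25 to 0.63 RPKM in the 6 groups, while Atp5g3, another copy encoding the same mature protein, was at 2.18 to 7.03. Cox4i2, the alternative form of subunit 4, was at 0.50 and 0.74 RPKM in astrocytes and at 0.04 to 0.16 in the other populations. Reads shared between near-identical copies are not in uniquely aligned counts, so levels of genes with such copies are uncertain.

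**Figure D5:**
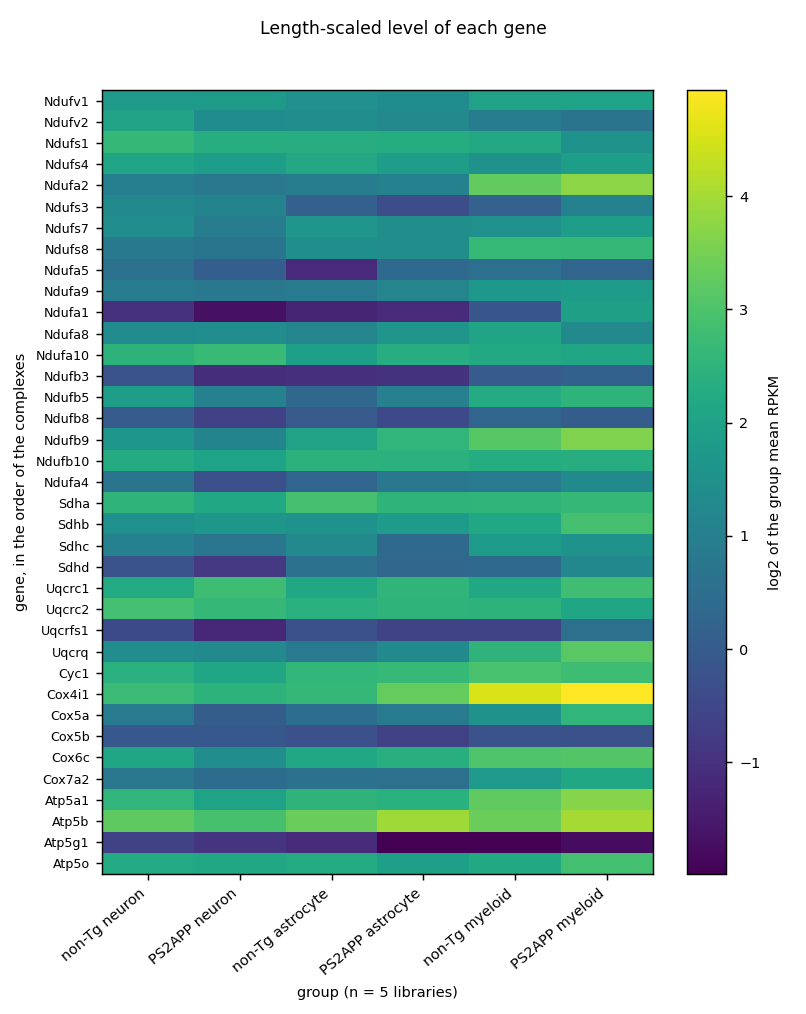
Heat map of the log2 of the mean deposited RPKM (colour scale; 5 libraries per group) for each member (rows, in the order of the complexes) in the 6 groups (columns). Cox4i1 in myeloid cells, with means of 23.5 and 30.6 RPKM, has the brightest cells and Atp5g1, 0.25 to 0.63, is among the lowest in each group.

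Other genes of the pathway were read from lists of remaining subunits, tissue isoforms, assembly factors, electron carriers and nucleotide exchangers, biogenesis regulators, citric acid cycle enzymes and mitochondrially encoded subunits. None of the 30, 27 and 27 tested remaining subunits passed for PS2APP in neurons, astrocytes and myeloid cells, with medians of -0.18, 0.16 and 0.25, nor did any tested isoform, assembly factor, carrier or citric acid cycle gene. Between non-Tg populations, 14 of 31 remaining subunits were lower in neurons and 14 lower in astrocytes than in myeloid cells, with 0 higher, where 34.1% and 26.8% of all genes were lower and 33.7% and 30.7% higher. Of 41 assembly factors, 5 were higher and 9 lower in neurons than in myeloid cells, which is below the share of all genes in each direction. Of the biogenesis regulators, Ppargc1b, a coactivator of mitochondrial genes, rose in PS2APP myeloid cells (1.23, SE 0.31, edgeR adjusted p = 0.0309), a call that held in 3 of 10 fits without 1 library. The PS2APP effect on Dlst, a subunit of 2-oxoglutarate dehydrogenase, was higher in astrocytes than in myeloid cells by 1.04 (SE 0.25, edgeR adjusted p = 0.0366).

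Some of the 7 testable mitochondrially encoded genes passed for PS2APP, where no nuclear member did. The lists differ widely in level and were not compared by a test. In PS2APP astrocytes 4 of the 7 rose: CYTB by 1.18 (SE 0.20, edgeR adjusted p = 0.0148), ND4 by 1.32 (0.0148), ND1 by 1.18 (0.0156) and COX1 by 1.11 (0.0156). In PS2APP myeloid cells ND2, ND4 and ND5 rose by 0.76 to 0.85 (edgeR adjusted p = 0.0396 to 0.0493), calls that held in 1, 3 and 4 of 10 fits without 1 library, and in neurons none passed. With the summed neuron and myeloid markers as a covariate, CYTB in astrocytes was at 0.76 and did not pass (edgeR adjusted p = 0.883). Those markers were themselves higher in PS2APP astrocytes. Neuron markers summed to 340 to 578 against 569 to 1562 CPM, and myeloid markers to 40.2 to 71.7 against 72.2 to 140. Marker content and genotype can therefore not be told apart here, and the cause was not tested. All 7 were lower in non-Tg neurons than in astrocytes and than in myeloid cells. Mitochondrially encoded genes took 1.20% and 1.51% of counts in non-Tg and PS2APP neurons, 3.58% and 6.91% in astrocytes and 8.75% and 13.5% in myeloid cells. The other 6 of the 13, among them COX2, COX3 and ATP6, were at 1.92 RPKM or less in every group, far below the levels of the other 7.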

How the data were processed

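RNA-seq counts and RPKM were deposited for each of 30 libraries. Per the file headers, the count column holds reads that aligned uniquely to a gene, and the RPKM column holds size-factor-adjusted values. GSNAP and GRCm38 are named in the submitters' processing notes; no version, gene annotation or strand setting was stated there. Deposited counts were used in all tests and RPKM only to compare levels between genes. Symbols came from the RefSeq table of GRCm38.p6 and covered 96.75% of counts. Replicate libraries were compared for duplicates, and all pairs differed by more than counting error (chi-square over degrees of freedom at least 4.06).

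Tests used edgeR 4.0.16 in R 4.3.3 (filterByExpr, TMM, quasi-likelihood test, Benjamini-Hochberg over all genes tested, adjusted p threshold 0.05), within each population for PS2APP and over all libraries for populations and interactions. The test was also run on simulated counts whose spread depended only on the mean count. Those counts held no gene-specific spread or outlying library, so the check does not cover these. CPM are on the TMM scale, within a population for PS2APP effects unless stated, and over all libraries otherwise. Alternatives were DESeq2 1.42.0 (size factors and Wald test), no filter, a gene-length offset, covariates, glmTreat at 2-fold and leaving out each library. Members and lists were chosen with earlier results of these data known. Named by rule were members past the threshold (if over 10, the smallest p per complex and direction), the extreme values per complex, and the leading genes of other lists. Replicate numbers only name libraries.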

Additional observations from a re-analysis of the deposited data

Results flagged for a closer look

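In 222 sets of 5 libraries (each of the 37 members in each of the 6 groups), the highest or lowest library lay far from the other 4 in 13, where chance gives about 1 in 20. None of 36 sets of complex sums did so. All values are CPM on the scale of the library's own population.

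Complex I gave 6 of these. Ndufb3 was low in non-Tg neuron library 5, at 0.978 against 1.76 to 2.00 in the others. Non-Tg astrocyte library 1 was low for Ndufv2 (4.17 against 12.8 to 15.2) and for Ndufs1 (24.9 against 43.8 to 49.4) and high for Ndufs4 (41.5 against 13.1 to 18.9). Ndufb10 was high in PS2APP astrocyte library 3, at 23.4 against 5.17 to 8.45. Ndufa1 was high in PS2APP myeloid library 4, at 17.2 against 2.999 to 3.86.

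In complexes II and III, Sdhd read 17.6 in PS2APP astrocyte library 5 against 0.334 to 2.68 in the others. Uqcrc1 read 59.2 in PS2APP astrocyte library 3 against 14.8 to 24.4, and Uqcrq 6.43 in non-Tg astrocyte library 1 against 1.05 to 2.21.

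In complex IV, Cox4i1 was low in non-Tg neuron library 1, at 11.6 against 19.3 to 21.2. Cox7a2 was high in PS2APP neuron library 2, at 6.12 against 2.81 to 3.61. Cox5a was high in non-Tg astrocyte library 2, at 4.30 against 2.14 to 2.72, and Cox5b in non-Tg myeloid library 1, at 2.96 against 1.03 to 1.48. Non-Tg astrocyte library 1 thus appeared 4 times, in both directions. PS2APP astrocyte library 3 and PS2APP myeloid library 4 were the farthest of their populations on the first principal component.

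Among the pathway genes that are not members, Dlst differed between populations in its PS2APP effect: astrocytes exceeded myeloid cells by 1.04 on the log2 scale (edgeR adjusted p = 0.0366 for the interaction).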

How the results depend on the processing

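No paired analysis was possible because the labels give no replicate numbers. Within populations, 0 members were called for PS2APP under each alternative, except 1 in neurons and 1 in myeloid cells by DESeq2's Wald test and 1 in myeloid cells in the joint fit. The counts of all genes called moved more: 1 in neurons became 15 with no filter, 153 with DESeq2 and 5 in the joint fit, 26 in astrocytes became 514, 327 and 295, and 412 in myeloid cells became 939, 899 and 798. With the other populations' markers as a covariate the myeloid median of members was 0.060. For non-Tg populations, a 2-fold threshold (glmTreat) left 0, 4 and 4 members for neuron minus astrocyte, neuron minus myeloid and astrocyte minus myeloid. Leaving out 1 library gave 2 to 5 members for neuron minus astrocyte (5 without non-Tg astrocyte 1), 9 to 15 for neuron minus myeloid (9 without non-Tg neuron 1) and 10 to 14 for astrocyte minus myeloid. The neuron minus myeloid median was -0.264 with DESeq2's size factors, -0.265 by its Wald test and -0.263 with the factors of the deposited RPKM. Among PS2APP libraries the neuron minus astrocyte median was -0.336 and the neuron minus myeloid median -1.005.

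Signs changed mostly for values near 0. For PS2APP in neurons, Cox5b was at 0.011 with DESeq2's size factors, 0.114 with the length offset, 0.229 with the marker covariate and 0.0090 in the joint fit, Atp5o at 0.034 with the length offset, and Ndufv1 at -0.079 and Sdhb at -0.029 with the covariate. In astrocytes, Cox7a2 was at 0.070 with the length offset and 0.682 with the Xist covariate, and with the marker covariate Atp5b was at -0.215, Ndufb8 at 1.26, Ndufs3 at 0.445 and Uqcrq at -0.359. In myeloid cells, Cox6c was at -0.047 with no filter, -0.0088 with the length offset, -0.670 with the covariate and -0.070 in the joint fit, and with the covariate Atp5a1 was at -0.084 and Ndufa4 at -0.037. Among PS2APP libraries, neuron minus astrocyte was -0.83 for Cox5a, -1.14 for Ndufa4, -0.34 for Ndufa5, -0.042 for Ndufb5 and -0.074 for Uqcrq, neuron minus myeloid 0.10 for Cox5b, and astrocyte minus myeloid -0.16 for Sdha and -1.06 for Uqcrfs1. Atp5a1, neuron minus astrocyte, was 0.058 with DESeq2's size factors, by its Wald test and with the RPKM factors, 0.054 with no filter, 0.027 without mitochondrial genes and 0.095 with the length offset. Under those 3 scalings Atp5o, neuron minus myeloid, was 0.029, 0.031 and 0.030, Cox5b 0.139, 0.145 and 0.139, and Atp5o, astrocyte minus myeloid, 0.051, 0.053 and 0.051. Cox5b was 0.047 with no filter, and Sdha, astrocyte minus myeloid, -0.0059 with the length offset. The cause was not tested.

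Leaving out 1 library gave these ranges across 0. For PS2APP in neurons, Atp5o ran from -0.173 to 0.034, Cox5b from -0.157 to 0.143 and Ndufv1 from -0.087 to 0.164. In astrocytes, Cox7a2 ran from -0.253 to 0.536 and Uqcrfs1 from -0.451 to 0.050, and in myeloid cells Cox6c from -0.172 to 0.263 and Sdhc from -1.01 to 0.059. For neuron minus astrocyte, Atp5a1 ran from -0.093 to 0.155 and Sdhb from -0.261 to 0.047. For neuron minus myeloid, Cox5b ran from -0.227 to 0.198 and Ndufa10 from -0.046 to 0.177. For astrocyte minus myeloid, Atp5o ran from -0.344 to 0.065, Cox5b from -0.553 to 0.094, Ndufb10 from -0.164 to 0.409 and Uqcrfs1 from -0.181 to 0.616. In each group 5 to 15 members had a library with fewer than 10 counts, and the members' median spread between replicates, 21% to 51.9%, was above that of counting, 12.1% to 18.8%.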
